A study of Mus musculus with 21 samples.

Results

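Genes that Wnt signalling switches on to restrain itself, together with the ubiquitin ligases that act on its receptors and on axin, were followed in endothelial cells sorted from mouse brain. The 10 genes were taken by name from the table of expression values, which holds 24206 gene names, and all 10 were found: Axin2, Nkd1, Nkd2, Apcdd1, Notum, Znrf3, Rnf43, Dkk2, Tnfrsf19 and Rnf146. The stroke experiment has 16 libraries in 4 groups (n = 4 each) from C57BL/6 mice of 12 to 20 weeks. WT-NS and WT-ST come from Gpr124 flox/+; ROSA-CreER+ mice, so the label WT stands for animals that carry Cre and 1 floxed allele, and Cko-NS and Cko-ST come from Gpr124 flox/-; ROSA-CreER+ mice. ROSA-CreER is not restricted to endothelium. In all 4 groups the middle cerebral artery was occluded for 1 h and reperfused for 1 d, and ST marks the stroke hemisphere and NS the other hemisphere, which is therefore not that of a mouse without stroke. A second experiment without stroke has 3 libraries of Ctnnb1 lox(ex3)/+; Cdh5-CreER+ mice (Bcat-01 to 03), of the same strain and age, in which Cre driven by an endothelial promoter removes the third exon of 1 beta-catenin allele and so stabilises the protein, and 2 libraries of Ctnnb1 +/+; Cdh5-CreER+ mice (WT-01 and WT-02), also of that strain and age. Sorted cells were live, carried CD31 and lacked CD45 and PDGFRb. The labels do not say whether the libraries of a group are from different mice, and the p-values therefore cover only the spread between libraries, which may be technical.

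Wnt ligands bind Frizzled receptors and the Lrp5 or Lrp6 co-receptors, which inactivates a destruction complex built on axin, so that beta-catenin accumulates and switches on genes together with TCF and LEF factors. Brain endothelium receives Wnt7a and Wnt7b through Gpr124 and Reck, and this signal maintains the blood-brain barrier. Several of its target genes encode inhibitors of the same pathway: Axin2 is a scaffold of the destruction complex, Nkd1 and Nkd2 bind Dishevelled, Apcdd1 is a membrane protein that binds Wnt and Lrp5, Notum is a secreted esterase that removes the lipid Wnt needs for activity, Dkk2 is a secreted ligand of Lrp5 and Lrp6, and the membrane ligases Znrf3 and Rnf43 mark Frizzled for removal. Tnfrsf19, also called Troy, is a receptor of the tumour necrosis factor family and a known Wnt target. Rnf146 is a ligase that recognises axin modified by tankyrases and marks it for destruction, and so acts in the opposite direction to the inhibitors.

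Values are RPKM, reads scaled to gene length and to the reads of the library. All 10 of 10 endothelial markers had a mean of at least 1 RPKM in every group, with a summed level of 875 to 1404 RPKM in the stroke experiment and 1644 to 2239 RPKM in the other. Depth, recovered from the steps of low values, was 4.72 to 19.6 M reads per stroke library and could not be recovered in the other 5. The 2 experiments used different RNA and kits, so their levels are not compared. By label, the stroke libraries were female except Cko-ST 3 and Cko-ST 4, and the beta-catenin libraries were male. In 2 stroke libraries the RNA went against the sex label: Cko-NS 4, labelled female, had 189 RPKM summed over 4 Y-linked genes and 1.48 RPKM of Xist, and Cko-ST 3, labelled male, had 0.423 and 89.7 RPKM. By RNA, the male stroke libraries were thus Cko-NS 4 and Cko-ST 4, both of the Cko genotype, so sex was not balanced between the genotypes. Gpr124 was 3.01, 7.58, 4.73 and 2.65 RPKM in WT-NS, 2.03, 0.994, 3.15 and 4.85 RPKM in Cko-NS, 8.12, 5.94, 2.92 and 2.98 RPKM in WT-ST and 0.500, 1.72, 1.72 and 1.52 RPKM in Cko-ST. The genotypes overlapped in the non-stroke hemisphere and did not in the stroke hemisphere, where the log2 difference was -1.28 ± 0.39 (SE; limma adjusted p = 0.764). The labels give neither the time of Cre induction nor which exons of Gpr124 were floxed, and 3' tags outside the deleted part would not check the deletion.

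Promoters of Axin2, Nkd1 and Tnfrsf19 are shown because they carry, or lack, the letters that TCF and LEF factors recognise. Each is the 250 bases upstream of a RefSeq transcription start (GRCm38.p6), 5' to 3' on the gene's strand, with a match to CTTTGAA or CTTTGAT on either strand in capitals. Axin2 starts at chr11:108920099-108920348 (+), Nkd1 at chr8:88527383-88527632 (+), and Tnfrsf19 has 2 starts, at chr14:61046856-61047105 (-) and chr14:61037988-61038237 (-).
Axin2: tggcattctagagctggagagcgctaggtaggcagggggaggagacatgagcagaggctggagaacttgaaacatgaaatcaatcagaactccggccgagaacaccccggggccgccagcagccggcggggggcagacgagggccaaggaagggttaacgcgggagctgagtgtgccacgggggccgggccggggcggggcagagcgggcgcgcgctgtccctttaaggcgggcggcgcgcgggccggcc
Nkd1: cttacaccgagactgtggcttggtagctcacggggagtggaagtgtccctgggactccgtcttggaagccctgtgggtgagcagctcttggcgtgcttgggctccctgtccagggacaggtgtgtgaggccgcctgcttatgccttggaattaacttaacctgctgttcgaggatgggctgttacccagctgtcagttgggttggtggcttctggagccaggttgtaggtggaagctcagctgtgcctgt
Tnfrsf19, first start: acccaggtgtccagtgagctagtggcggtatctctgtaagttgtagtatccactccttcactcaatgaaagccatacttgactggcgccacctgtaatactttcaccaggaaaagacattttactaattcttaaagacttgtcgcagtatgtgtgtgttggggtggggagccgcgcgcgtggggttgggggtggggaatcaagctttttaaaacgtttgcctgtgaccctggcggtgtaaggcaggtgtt
Tnfrsf19, second start: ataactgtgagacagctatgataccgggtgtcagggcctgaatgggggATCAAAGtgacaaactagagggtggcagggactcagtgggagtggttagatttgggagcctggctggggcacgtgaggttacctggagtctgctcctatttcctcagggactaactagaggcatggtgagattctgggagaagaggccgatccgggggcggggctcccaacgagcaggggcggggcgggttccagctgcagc
RefSeq entries matched 7 of the 10 genes (no entry was at hand for Notum, Znrf3 or Apcdd1), with 10 promoters in all. Of these, 1 held the motif, the second start of Tnfrsf19, where the reverse-strand form ATCAAAG begins 202 bases before the start. Among 20509 promoters of genes in the table, 1378 (6.72%) held it. A match is a description of letters, and the windows without one say nothing of binding elsewhere.

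In WT mice, Axin2, Notum and Tnfrsf19 fell in the stroke hemisphere, with mean levels 3.44 to 4.40 times lower than on the other side. They are 3 of the 7 genes that passed the filter on low values (a mean of at least 1 RPKM over the 16 libraries), while 4.84% of all 9838 genes tested fell. Nkd1, Apcdd1, Znrf3 and Rnf146 did not pass the test, and Nkd2, Rnf43 and Dkk2 were below the filter. In Cko mice the same 3 genes fell with stroke, where 8.71% of all genes tested fell. No member rose in either genotype, against 8.46% of all genes in WT and 6.44% in Cko, and 13.3% and 15.2% of all genes passed in either direction.

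Axin2 (chr11:108920349-108950783, + strand; GRCm38, here and below) was 6.21, 3.96, 2.84 and 5.33 RPKM in the 4 WT-NS libraries and 0.786, 1.24, 0.717 and 1.43 RPKM in WT-ST. Every WT-ST library was lower than every WT-NS library. The means were 4.59 ± 1.49 and 1.04 ± 0.347 RPKM (SD, n = 4), a ratio of 4.40, and the log2 difference of RPKM + 1, a scale that understates changes of low values, was -1.43 ± 0.26 (SE; limma adjusted p = 0.00128). In Cko-NS, Axin2 was 2.31, 2.82, 2.68 and 2.84 RPKM, and in Cko-ST 0.409, 0.183, 0.332 and 0.0716 RPKM. Again all stroke libraries were below all non-stroke libraries, and Cko-ST was also below every WT-ST library. The Cko means were 2.66 ± 0.246 and 0.249 ± 0.151 RPKM, a ratio of 10.7, and the log2 difference was -1.56 ± 0.26 (limma adjusted p = 5.54e-04). These values rest on few reads at the low end: the steps of the RPKM values give 90 to 331 reads in WT-NS, 71 to 132 in Cko-NS, 20 to 64 in WT-ST and 6 to 24 in Cko-ST. The ratio of the means looked larger in Cko than in WT, but the difference between the 2 log2 stroke effects was -0.13 ± 0.37 (95% interval -0.91 to 0.65; limma adjusted p = 0.962). It turned to 0.11 with 5 RPKM added in place of 1 and to 0.10 after quantile normalization. Adding 5 RPKM flattens differences between values as low as those of Cko-ST (0.0716 to 0.409 RPKM) further than adding 1. These settings therefore do not show that the ratios of the 2 genotypes were alike.

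Notum (chr11:120653788-120661175, - strand) had the largest fall of the 10 genes in Cko. Its 4 values were 3.45, 6.96, 7.27 and 6.44 RPKM in WT-NS and 1.53, 1.53, 0.226 and 2.82 RPKM in WT-ST. The groups did not overlap, and WT-ST 3 lay well below its fellows. The log2 difference was -1.55 ± 0.34 (limma adjusted p = 0.00490), for means of 6.03 ± 1.76 and 1.53 ± 1.06 RPKM and a ratio of 3.95. In Cko-NS, Notum was 8.03, 3.99, 3.80 and 5.02 RPKM, and in Cko-ST 0.215, 0.378, 0.482 and 0.502 RPKM. All Cko-ST libraries were close to each other and far below Cko-NS. The reads behind the low values of Notum could not be recovered as they were for Axin2. The log2 difference was -2.11 ± 0.34 (limma adjusted p = 3.97e-04), for means of 5.21 ± 1.96 and 0.394 ± 0.131 RPKM and a ratio of 13.2. The stroke effects of the genotypes differed by -0.57 ± 0.48 on the log2 scale (95% interval -1.58 to 0.44; limma adjusted p = 0.846). In the annotation, 708 exon bases of Notum lie opposite the antisense gene Notumos and 210 opposite Myadml2os. Reads of these antisense genes would not be told apart from Notum in counts made without strand, and the sources used here do not say how strand was treated.

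Tnfrsf19 (chr14:60963875-61046490, - strand) was nearly constant in WT-NS, at 18.2, 17.5, 18.8 and 18.4 RPKM, and was 5.50, 8.58, 3.89 and 3.21 RPKM in WT-ST. No library of one group reached the other. The log2 difference was -1.68 ± 0.29 (limma adjusted p = 7.88e-04), for means of 18.2 ± 0.557 and 5.29 ± 2.39 RPKM and a ratio of 3.44. In Cko-NS, it was 6.12, 14.8, 10.4 and 9.78 RPKM, spread more widely than in WT-NS, and in Cko-ST 4.10, 2.64, 4.97 and 3.09 RPKM. The Cko groups did not overlap either. The log2 difference was -1.23 ± 0.29 (limma adjusted p = 0.00726), for means of 10.3 ± 3.57 and 3.70 ± 1.04 RPKM and a ratio of 2.78. The difference between the stroke effects was 0.45 ± 0.41 (95% interval -0.41 to 1.31; limma adjusted p = 0.857).

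Without the 2 libraries whose RNA went against the sex label, the stroke effects in Cko were -1.57 for Axin2 (limma adjusted p = 0.00298), -2.14 for Notum (0.00234) and -1.36 for Tnfrsf19 (0.0130). This leaves Cko-ST 4, with male RNA, against Cko-NS libraries that all have female RNA, so it does not balance sex. Of the 7 genes tested, Axin2, Notum and Tnfrsf19 had stroke libraries that were all lower than the non-stroke libraries, in both genotypes, against 8.70% of all genes in WT and 11.4% in Cko. Rnf146 was the only member with all stroke libraries higher, in Cko, where 7.40% of all genes had that pattern, while its WT groups overlapped. The median log2 stroke effect over the 7 genes was -0.62 in WT and -0.45 in Cko, beside 0.01 and -0.13 over all genes.

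Sums of marker genes also differed between the hemispheres. The sum of the 10 endothelial markers was higher after stroke without overlap. It was 875 to 1045 RPKM in WT-NS and 1149 to 1252 in WT-ST, and 996 to 1262 in Cko-NS and 1297 to 1404 in Cko-ST. The 8 astrocyte markers, of which 1 to 3 had a mean of at least 1 RPKM, were separate in the same direction, from 226 to 283 RPKM to 716 to 1164 in WT and from 305 to 362 to 993 to 1076 in Cko, with Aldh1l1 at 0 in Cko-NS, and nearly all of this sum was Gja1, which endothelium also expresses. Without Gja1 it was 1.28 to 8.68, 1.39 to 10.4, 1.74 to 20.3 and 0.212 to 2.94 RPKM in WT-NS, WT-ST, Cko-NS and Cko-ST. Single endothelial markers went both ways. Cdh5 was higher after stroke without overlap in both genotypes (214 to 270, 362 to 471, 246 to 338 and 352 to 560 RPKM in the same order), as was Emcn. Tek was lower without overlap in both (122 to 157, 97.25 to 111, 118 to 183 and 68.5 to 93.2 RPKM). In Cko only, Flt1 and Cldn5 were also lower and Kdr higher without overlap. Pecam1 was higher without overlap in WT only. Means of the oligodendrocyte, neuron, red-cell, microglia and choroid plexus sums were lower after stroke in both genotypes. The sum of 5 choroid plexus markers was 291 to 476 RPKM in WT-NS, 15.4 to 600 in WT-ST, 87.1 to 1330 in Cko-NS and 4.41 to 998 in Cko-ST. The mean sum of the blood leukocyte markers was 1.96 RPKM in WT-NS and 18.9 in WT-ST, and 29.4 in Cko-NS and 10.9 in Cko-ST. The summed level of 10 oligodendrocyte and precursor markers, of which 7 to 9 had a mean of at least 1 RPKM in each group, was 191 to 1054 RPKM in WT-NS, 30.8 to 393 in WT-ST, 46.1 to 540 in Cko-NS and 22.3 to 286 in Cko-ST, ranges that overlap. None of the 10 was at 0 in a whole group. In Cko the mean mural sum was instead higher after stroke, through 1 library. The sum of 10 mural-cell markers was 42.4 to 65.2 RPKM in WT-NS, 8.39 to 46.6 in WT-ST, 17.3 to 31.1 in Cko-NS and 12.1 to 106 in Cko-ST, with 2 or 3 markers at a mean of at least 1 RPKM, Kcnj8 at 0 in WT-ST, and Des at 0 in both Cko groups. The sum of 9 neuron markers, 2 to 4 of them at a mean of at least 1 RPKM, was 19.4 to 26.7 RPKM in WT-NS, 10.8 to 21.9 in WT-ST, 12.0 to 61.3 in Cko-NS and 5.75 to 9.35 in Cko-ST, with Nefl at 0 in WT-NS, Rbfox3, Nefl and Slc17a7 at 0 in WT-ST, and Rbfox3, Syt1 and Slc17a7 at 0 in Cko-ST. The 5 red-cell markers, all at a mean of at least 1 RPKM, summed to 5537 to 9644 RPKM in WT-NS, 2466 to 7301 in WT-ST, 3949 to 26500 in Cko-NS and 1051 to 12790 in Cko-ST. The 9 microglia and macrophage markers found, 2 to 5 of them at a mean of at least 1 RPKM, summed to 1.68 to 84.7, 2.29 to 17.7, 11.6 to 22.9 and 3.96 to 9.29 RPKM in the same order, with Tmem119 at 0 in both stroke groups. In WT-NS, Tnfrsf19 was 17.5 to 18.8 RPKM and the oligodendrocyte sum differed up to 5.51 times between libraries. In Cko-NS, Tnfrsf19 was 6.12 to 14.8 RPKM and that sum 46.1 to 540 RPKM. The part of other cells in the falls of Axin2, Notum and Tnfrsf19 was not tested, and in bulk libraries fewer cells of a type and less RNA per cell cannot be told apart.

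**Figure D1:**
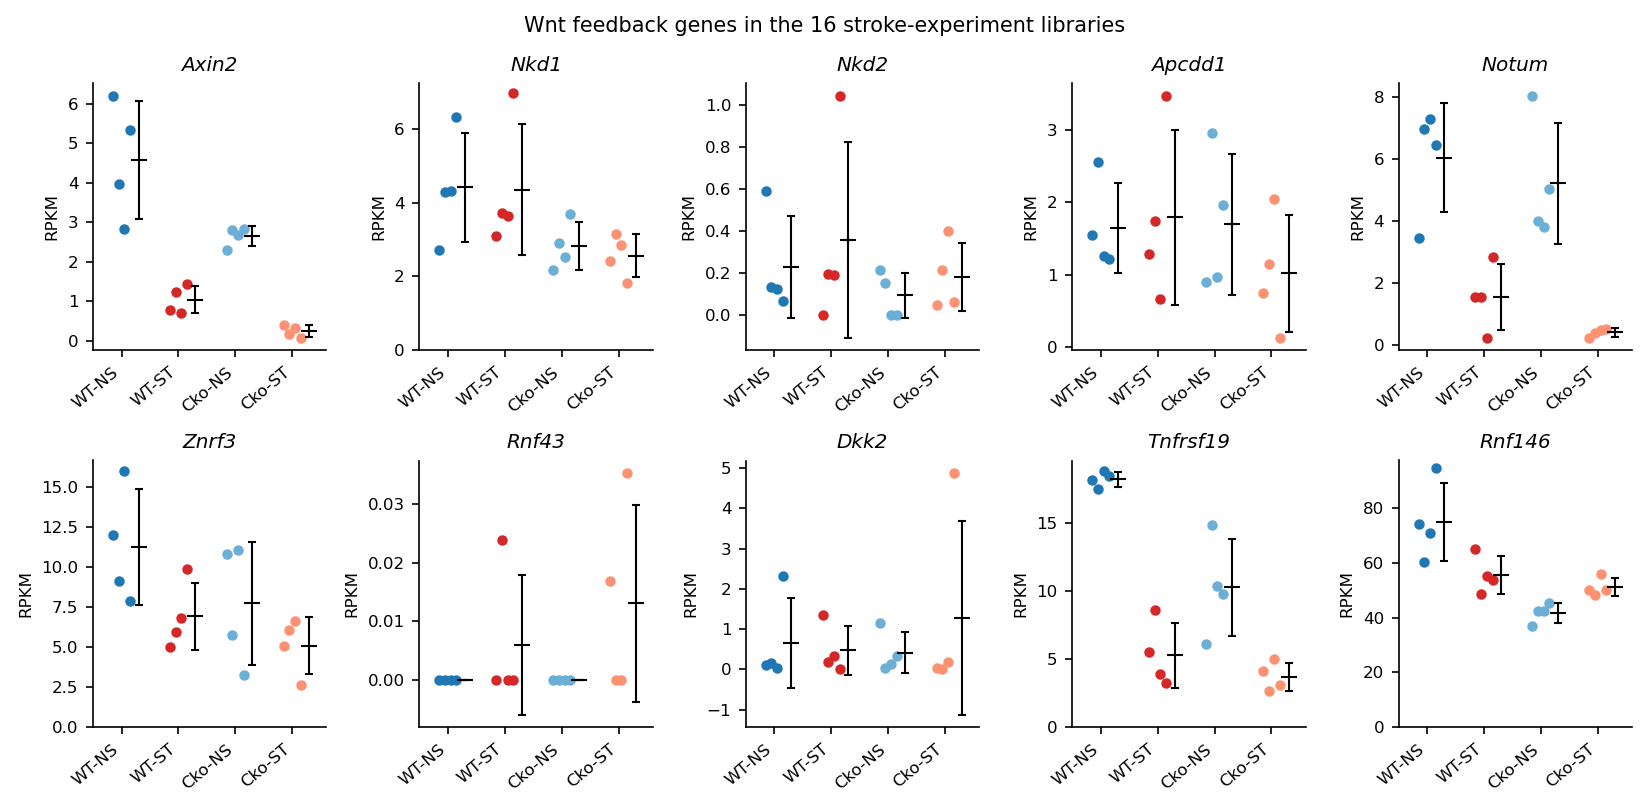
RPKM (linear axis, 1 panel per gene with its own scale) of the 10 genes in the 16 libraries of the stroke experiment. Points are libraries, the horizontal mark is the group mean and the bar its SD (n = 4); Axin2, Notum and Tnfrsf19 are lower in every stroke library than in every non-stroke library of the same genotype, and Nkd1 and Apcdd1 overlap throughout.

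Nkd1, which binds Dishevelled (chr8:88521354-88594884, + strand), did not pass in either genotype. It was 2.70, 4.30, 4.30 and 6.33 RPKM in WT-NS and 3.08, 3.72, 3.63 and 6.97 RPKM in WT-ST, and the groups overlapped. The log2 stroke effect was -0.03 ± 0.29 in WT (limma adjusted p = 0.968) and -0.10 ± 0.29 in Cko (0.848). The Cko values were 2.17, 2.91, 2.52 and 3.68 RPKM in the non-stroke and 2.43, 3.16, 2.86 and 1.81 RPKM in the stroke hemisphere. Apcdd1 was low in this experiment and scattered within groups, from 1.21 to 2.55 RPKM in WT-NS, 0.661 to 3.47 in WT-ST, 0.898 to 2.96 in Cko-NS and 0.127 to 2.04 in Cko-ST. Its log2 stroke effect was 0.01 ± 0.37 in WT (limma adjusted p = 0.991) and -0.44 ± 0.37 in Cko (0.458), and the WT value changed sign with the scaling (-0.04 after quantile normalization). Znrf3, the ligase that acts on Frizzled (chr11:5276324-5444847, - strand), was 12.0, 9.15, 16.0 and 7.86 RPKM in WT-NS and 5.02, 5.97, 6.84 and 9.86 RPKM in WT-ST. WT-ST 4 lay above WT-NS 2 and WT-NS 4, so the groups overlapped, and the log2 difference of -0.62 ± 0.35 missed the threshold (limma adjusted p = 0.277). In Cko the Znrf3 difference was -0.45 ± 0.35 (0.422), between 3.25 to 11.0 RPKM in the non-stroke and 2.61 to 6.61 RPKM in the stroke hemisphere. It was -0.76 without Cko-NS 4, -0.22 without Cko-ST 4 and -0.88 (limma adjusted p = 0.114) without the 2 libraries that go against the sex label. Misses of the threshold do not show that these genes were level between hemispheres.

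Of the members below the filter, Rnf43 and Nkd2 had few reads, and Dkk2 was high in single libraries. Rnf43 (chr11:87662722-87735539, + strand), the relative of Znrf3, was at 0 in 13 of 16 libraries and had about 1, 1 and 3 reads in WT-ST 2, Cko-ST 1 and Cko-ST 4. Nkd2 (chr13:73818534-73847631, - strand), the relative of Nkd1, had 0 to 27 reads per library and a highest value of 1.04 RPKM, in WT-ST 4. Dkk2 (chr3:132085292-132180304, + strand) was under 0.4 RPKM in 12 of 16 libraries and stood out in 1 library of each group: 2.32 RPKM in WT-NS 4 (125 reads), 1.36 in WT-ST 1 (97 reads), 1.16 in Cko-NS 1 (31 reads) and 4.89 in Cko-ST 4 (356 reads). The high libraries belong to both genotypes and both hemispheres. Cko-ST 4 also had the highest mural sum of the experiment, 106 RPKM, of which Rgs5 made up 93.8, while WT-ST 1 had a mural sum of 9.83 RPKM, and the part of mural cells in Dkk2 was not tested. In a fit with no filter on low values (17652 genes), the limma adjusted p of these 3 genes was 0.592 or higher in every comparison of the stroke experiment.

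The genotypes were next compared in the non-stroke hemisphere, which asks what the Gpr124 genotype does outside the stroke. Rnf146 was the only one of the 7 genes tested to pass, and it fell. Over all genes 31 passed (0.315%), 22 of them higher (0.224%) and 9 lower (0.0915%). Rnf146 (chr10:29344176-29362442, - strand) was 74.0, 60.4, 71.0 and 94.5 RPKM in WT-NS and 36.7, 42.5, 42.4 and 45.5 RPKM in Cko-NS. Each Cko-NS library was lower than each WT-NS library. The means were 75.0 ± 14.2 and 41.8 ± 3.65 RPKM (SD, n = 4), and the log2 difference was -0.81 ± 0.16 (limma adjusted p = 0.0381). This call was narrow: it was lost with the sex label as a term (0.0522; the RNA goes against this label in 2 libraries), in a fit of the 2 groups alone (0.123), and without any 1 of WT-NS 1 (0.0818), WT-NS 3 (0.0559), WT-NS 4 (0.142), Cko-NS 1 (0.0817), Cko-NS 2 (0.0559) or Cko-NS 3 (0.0863). Without Cko-NS 4 and Cko-ST 3 it was -0.86 (0.0414).

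The Rnf146 signal cannot be told apart from that of its neighbour. Echdc1, which encodes a metabolic enzyme that clears a faulty product of fatty-acid synthesis, lies on the opposite strand, and the exons of the 2 genes share 3129 bases at their 3' ends (chr10:29344341-29347469). In the 16 stroke libraries, made with a kit that reads 3' ends, the ratio of Rnf146 to Echdc1 stayed between 0.726 and 0.785. Their log2 values had a Pearson r of 0.996 across these libraries, which also share groups and depth. Echdc1 itself fell by 0.86 ± 0.16 on the log2 scale in Cko-NS (limma adjusted p = 0.0213). In the total-RNA libraries of the other experiment the ratio ranged from 0.976 to 1.77 (5 libraries). How the counting treated strand is not given in the sources used here, so reads of the shared stretch may belong to either gene.

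**Figure D2:**
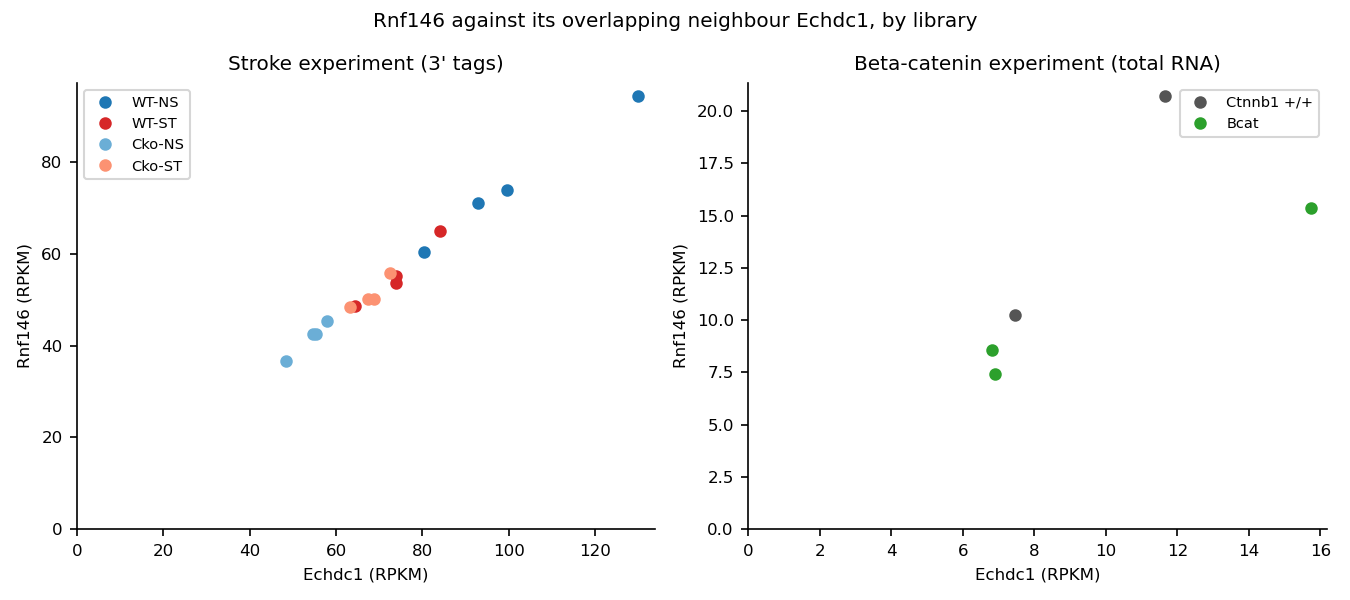
RPKM of Rnf146 (vertical axis) against RPKM of Echdc1 (horizontal axis), both linear, with 1 point per library and colours for groups. The 16 stroke libraries lie along 1 line with a ratio of 0.726 to 0.785, and the 5 libraries of the beta-catenin experiment scatter between 0.976 and 1.77.

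The inhibitors did not pass in this comparison. Tnfrsf19 came nearest in the sense that its groups did not overlap (17.5 to 18.8 RPKM in WT-NS and 6.12 to 14.8 RPKM in Cko-NS), with a log2 difference of -0.83 ± 0.29 (95% interval -1.43 to -0.22; limma adjusted p = 0.200). Of the 7 genes tested, Tnfrsf19 and Rnf146 had all Cko-NS libraries below all WT-NS libraries, a pattern found in 2.04% of all genes, and no member had the opposite pattern, found in 6.66%. For Axin2 the highest Cko-NS value equalled the lowest WT-NS value at 2.84 RPKM to 3 digits, and the log2 difference was -0.57 ± 0.26 (95% interval -1.12 to -0.02; limma adjusted p = 0.329). Nkd1 differed by -0.47 ± 0.29 (0.470), Znrf3 by -0.57 ± 0.35 (0.478; -0.26 without Cko-NS 4), Notum by -0.19 ± 0.34 (0.848) and Apcdd1 by -0.01 ± 0.37 (0.992). All 7 point estimates were negative, with a median of -0.57 beside 0.11 over all genes.

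In the stroke hemisphere, the genotypes differed in no gene at the threshold, members included: 0 of 9838 genes (0%) passed limma's test, and 476 had an unadjusted p under 0.05. Axin2 was the member whose groups did not overlap, with WT-ST at 0.717 to 1.43 RPKM and Cko-ST at 0.0716 to 0.409 RPKM, a ratio of means of 4.19. The share of all genes with every Cko-ST library lower was 1.86%, and with every one higher 1.46%, with no member among the latter. The log2 difference of Axin2 was -0.70 ± 0.26 (95% interval -1.25 to -0.15; unadjusted p = 0.0150, limma adjusted p = 0.994). Notum was 0.226 to 2.82 RPKM in WT-ST and 0.215 to 0.502 RPKM in Cko-ST, so the groups overlapped through WT-ST 3, and its difference was -0.75 ± 0.34. The other 5 differed by -0.11 (Rnf146) to -0.55 (Nkd1), and the median over the 7 was -0.46, beside -0.03 over all genes. The group order of means for Axin2 was WT-NS, Cko-NS, WT-ST and Cko-ST, with a break between Cko-NS and WT-ST and another between WT-ST and Cko-ST, and an overlap only at the top. Notum followed the same order, and its only break between neighbours lay between Cko-NS and WT-ST. In Tnfrsf19, again in this order, WT-NS and Cko-NS were the only neighbours that were separate.

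No gene passed the test of the interaction of genotype and stroke (0 of 9838 by limma, 691 at an unadjusted p under 0.05). Rnf146 had the lowest p of the members: the difference between its stroke effects was 0.70 ± 0.23 (unadjusted p = 0.00644, limma adjusted p = 0.681). With stroke it was 65.0, 48.7, 55.2 and 53.6 RPKM in WT-ST and 50.2, 48.4, 55.8 and 50.1 RPKM in Cko-ST. Its stroke effect was -0.41 ± 0.16 in WT (limma adjusted p = 0.0987) and 0.29 ± 0.16 in Cko (0.247), and Echdc1 moved beside it, at -0.42 and 0.33. The WT value passed after quantile normalization (-0.51, 0.0471).

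**Figure D3:**
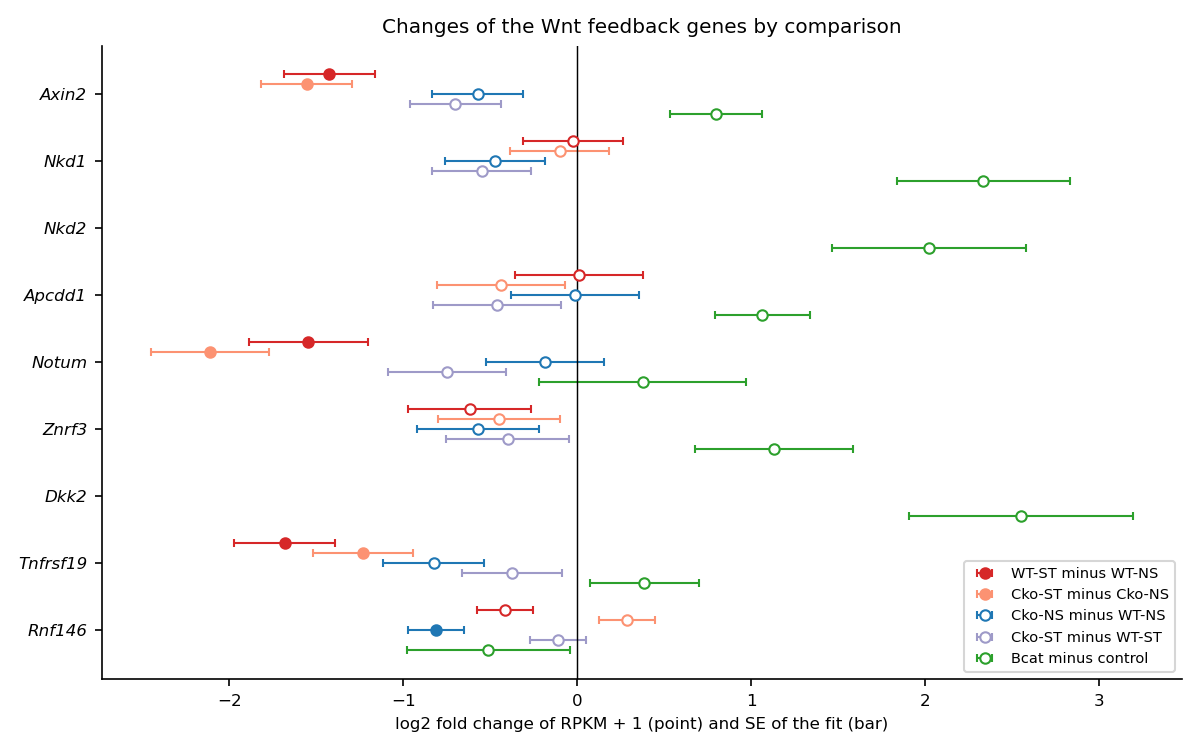
Log2 differences of RPKM + 1 (points) with the SE of the fit (bars) for the members tested, by comparison, with filled points for limma adjusted p under 0.05. Filled points are the stroke effects of Axin2, Notum and Tnfrsf19 in both genotypes and the genotype effect on Rnf146 in the non-stroke hemisphere; no member is filled in the beta-catenin comparison.

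Stabilised beta-catenin without stroke tests the pathway from the other end, since beta-catenin acts below Gpr124. With 3 libraries against 2, no gene passed the test (0 of 11252 by limma, 0%, with 590 at an unadjusted p under 0.05, among them 6 of the 9 members tested), so the members are described by their values. Of the 9 members tested, 6 had every Bcat library above both controls (Axin2, Nkd1, Nkd2, Apcdd1, Znrf3 and Dkk2) and 0 had every library below. Over all genes, 8.66% were higher and 11.7% lower in this sense. The median difference over the 9 was 1.06, beside -0.06 over all genes. Dkk2, at a mean of 0.265 RPKM in the controls, passed the filter of 1 RPKM only through its Bcat values. Its place in these counts and in the median is therefore no support for a rise. Ctnnb1 was 244, 250 and 169 RPKM in Bcat and 300 and 310 RPKM in the controls, a value over the whole gene that does not check the loss of an exon.

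Nkd1 was 85.9, 71.9 and 24.9 RPKM in Bcat-01 to 03 and 8.47 and 11.5 RPKM in WT-01 and WT-02. Even the lowest Bcat library was well above the higher control. The means were 60.9 ± 32.0 (SD, n = 3) and 9.96 ± 2.11 RPKM (SD, n = 2), and the log2 difference was 2.34 ± 0.50 (95% interval 1.21 to 3.46; unadjusted p = 0.00109, limma adjusted p = 0.611). Its relative Nkd2 was 6.55, 12.5 and 15.3 RPKM against 2.96 and 1.14 RPKM. Here Bcat-03 was the highest library, where in Nkd1 it was the lowest. The log2 difference of Nkd2 was 2.02 ± 0.56 (limma adjusted p = 0.822). Dkk2, the ligand of Lrp5 and Lrp6, was 4.74, 4.56 and 11.0 RPKM in Bcat and 0.530 and 0 RPKM in the controls. Its log2 difference was 2.55 ± 0.64 (limma adjusted p = 0.721), and it depends on the value added before the logarithm because a control is at 0 (4.65 with 0.1 RPKM added, 1.12 with 5).

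Axin2 was 46.5, 54.5 and 44.2 RPKM in Bcat and 28.3 and 26.3 RPKM in the controls. The groups were narrow and apart, with means of 48.4 ± 5.42 and 27.3 ± 1.45 RPKM, a ratio of 1.77 and a log2 difference of 0.80 ± 0.26 (95% interval 0.20 to 1.39; limma adjusted p = 0.901). Apcdd1 was 106, 161 and 98.2 RPKM in Bcat and 53.6 and 59.3 RPKM in the controls, the highest level of the 10 genes in this experiment. Its log2 difference was 1.06 ± 0.27 (limma adjusted p = 0.769), a ratio of means of 2.16. Znrf3 was 14.6, 13.9 and 15.0 RPKM against 3.70 and 9.69 RPKM, nearly constant in Bcat and spread between the controls. Its log2 difference was 1.13 ± 0.45 (limma adjusted p = 0.911), and it was 0.54 without WT-01 and 1.72 without WT-02.

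The remaining members overlapped. Notum was 15.0, 12.5 and 4.88 RPKM in Bcat and 4.19 and 12.4 RPKM in the controls, and its log2 difference of 0.38 ± 0.60 (95% interval -0.97 to 1.72) turned to -0.31 without WT-01. Tnfrsf19 was 70.0, 59.2 and 43.9 RPKM against 34.1 and 54.5 RPKM, with a log2 difference of 0.39 ± 0.31 (95% interval -0.32 to 1.09; 0.05 without WT-01 and 0.72 without WT-02). Rnf146, the ligase for axin, was 7.41, 8.58 and 15.4 RPKM against 20.7 and 10.2 RPKM, with a log2 difference of -0.51 ± 0.47 (-0.04 without WT-01 and -0.99 without WT-02). Rnf43 was listed at 0 in all 5 libraries. Notum and Tnfrsf19, which fell with stroke, were among those without separate groups here, and Nkd1, which overlapped between hemispheres, had separate groups and a ratio of means of 6.12.

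Bcat-03 stood apart in mural markers: the sum of the 10 markers was 14.5, 56.5 and 99.5 RPKM in Bcat-01 to 03 and 21.8 and 29.2 RPKM in the controls, with 7 and 6 markers at a mean of at least 1 RPKM and none at 0 in a whole group. Bcat-03 held 34.1 RPKM of Acta2 and 21.0 RPKM of Myh11, and it is also the library with the highest Nkd2 and Dkk2. Bcat-01, with the lowest mural sum of the 5, had 4.74 RPKM of Dkk2 and 6.55 RPKM of Nkd2, above both controls. Without Bcat-03 the log2 difference was 1.80 for Nkd2 and 2.19 for Dkk2, and 2.88 for Nkd1, which is lowest in that library. Other marker sums also separated the groups. The sum of 10 endothelial markers was lower in Bcat (1644 to 1843 against 1898 to 2239 RPKM) and that of 5 red-cell markers higher (15490 to 30170 against 13320 to 14110 RPKM). The sum of 8 astrocyte markers was higher (31.4 to 41.0 against 15.9 to 25.9 RPKM, 4 and 1 of them at a mean of at least 1 RPKM, with Aldh1l1 and S100b at 0 in the controls). Most of it was Gja1, and without Gja1 the groups overlapped (1.74 to 12.0 against 1.55 to 2.54 RPKM). At low levels, the microglia and macrophage sum was higher (3.41 to 5.56 against 1.75 to 2.63 RPKM) and the fibroblast sum lower (0.846 to 1.15 against 1.28 to 1.95 RPKM). The part of these cells in the members' values was not tested.

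**Figure D4:**
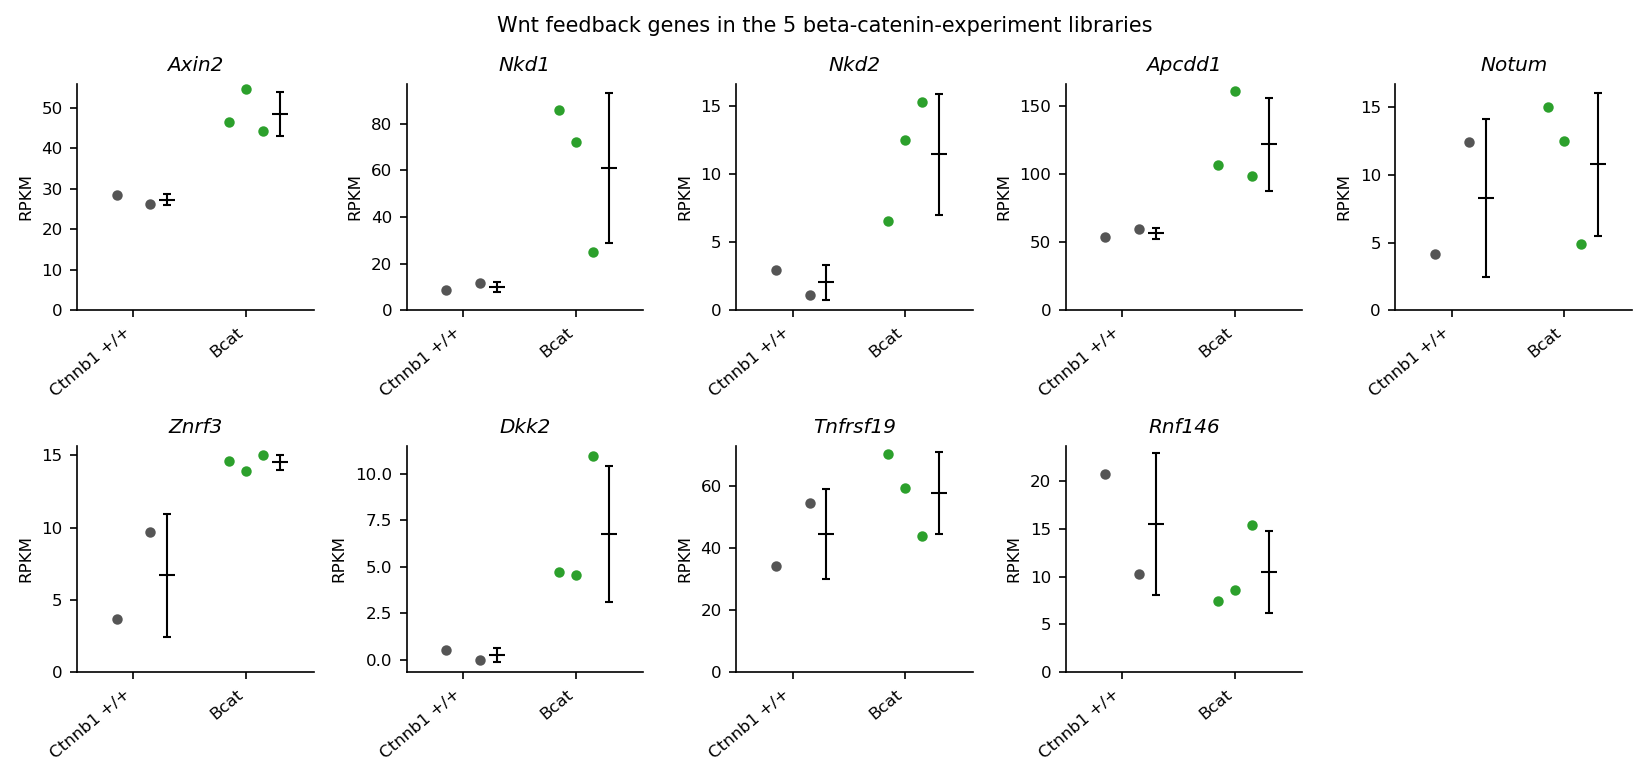
RPKM (linear axis, 1 panel per gene with its own scale) in the 2 control libraries (Ctnnb1 +/+) and the 3 libraries with stabilised beta-catenin (Bcat). Points are libraries, the horizontal mark is the mean and the bar the SD; in 6 panels all Bcat points lie above both controls, and in Notum, Tnfrsf19 and Rnf146 the groups overlap. Rnf43, listed at 0 in every library, is not drawn.

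The rest of the pathway was read from lists of 100 genes in 7 groups. With stroke, 4.84% of all genes tested fell and 8.46% rose in WT, and 8.71% fell and 6.44% rose in Cko. Of 46 list genes tested, 11 in WT and 13 in Cko had a limma unadjusted p under 0.05, against 27.1% and 29.2% of all genes. The calls below are therefore not read as a fall of the whole pathway. Of 12 receptors and co-receptors tested, Reck, the Wnt7 co-receptor, fell by 1.35 ± 0.28 on the log2 scale with stroke in WT (limma adjusted p = 0.00351) and by 1.07 ± 0.28 in Cko (0.0167). The co-receptor Lrp6 fell by 0.67 ± 0.21 in WT (0.0408) and differed by -0.49 ± 0.21 in Cko (0.121), and none rose. Of 9 nuclear factors, Lef1 fell by 0.73 ± 0.16 in WT (0.00429) and 0.78 ± 0.16 in Cko (0.00252), and Tcf7 fell by 1.04 ± 0.26 (0.0126) and 1.26 ± 0.26 (0.00339). Lef1 and Tcf7 belong to the family of factors that beta-catenin binds on DNA. Tcf7l2, of the same family and at a mean of 40.9 RPKM, did not pass. It differed by -0.48 in WT (limma adjusted p = 0.180) and -0.39 in Cko (0.264), and was named after its values were seen. The corepressor Tle1 fell in WT (-0.92, 0.0245; -0.71, 0.0740 in Cko) and Tle3 rose in Cko (0.73, 0.0327; 0.66, 0.0558 in WT); both were named after their values were seen. Of 8 genes that set axin turnover, the tankyrase Tnks2 fell (-0.45, 0.0432) and the ligase Smurf2 rose (0.79, 0.0399) in WT, and none passed in Cko, where these were -0.32 (0.138) and 0.62 (0.0966). Of 12 genes of the destruction complex and Dishevelled, none passed in either genotype by limma, with 1 in WT and 0 in Cko at an unadjusted p under 0.05, a level reached by 27.1% and 29.2% of all genes. In the remaining lists few genes were expressed: Lgr4, the receptor through which R-spondins restrain Znrf3, fell in Cko, from a mean of 13.7 to 6.30 RPKM (0.0309), differed by -0.67 ± 0.30 in WT (0.154) and was the only gene of its list tested, Frzb, a secreted Wnt antagonist, rose in Cko (1.27, 0.0487) as 1 of 3 other inhibitors tested and differed by -0.57 ± 0.42 in WT (0.417), and Wnt5a was the only ligand tested and did not pass. No gene of the 7 lists passed limma's test in the genotype comparisons, the interaction or the beta-catenin comparison, where 5, 2 and 2 of 46 tested (genotype in the non-stroke and stroke hemisphere, then the interaction) and 1 of 56 had an unadjusted p under 0.05. Over all genes these shares were 14.3%, 4.84%, 7.02% and 5.24%. Lef1 differed by -0.56 and Wnt5a by 2.77 ± 0.60 (limma adjusted p = 0.649) in the last.

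Genes whose pattern was most like a member's across the 16 stroke libraries were taken by Pearson r of log2(RPKM + 1), as a description, since libraries share groups and depth. For Axin2 they were Sgpp2 (r = 0.978), Atp8a1 (0.956) and Sparcl1 (0.949). For Notum they were Kcp (0.956), Fendrr (0.954) and Slco1c1 (0.950), and for Tnfrsf19 they were Gbp7 (0.967), Akr1c14 (0.956) and Hbb-y (0.945). Znrf3 had Slc7a3 (0.870), Nkd1 had Nudt2 (0.826) and Apcdd1 had Dsn1 (0.816) as its nearest gene, and Rnf146 had Echdc1. Among the members themselves, r was 0.895 for Axin2 with Tnfrsf19, 0.866 for Axin2 with Notum and 0.771 for Notum with Tnfrsf19.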

How the data were processed

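Expression was measured by RNA sequencing in 21 libraries. The authors deposited RPKM values in a single table, and edgeR and mm10 are named in the submitters' processing notes; aligner, gene lengths and strand are not stated there. Per the labels' protocols, stroke libraries were made from polyA RNA with a 3' expression kit and the other 5 from total RNA. Another 8 columns match no sample described here and were not used. Comparisons were made on log2(RPKM + 1) with limma 3.58.1 (R 4.3.3) for genes with a mean of at least 1 RPKM, with a mean-variance trend, two-sided tests and p-values adjusted by Benjamini-Hochberg over every gene tested, at a threshold of 0.05. The 16 stroke libraries were fitted together with 4 group means (9838 genes, 12 residual degrees of freedom) and the 5 beta-catenin libraries apart (11252 genes, 3 residual degrees of freedom). Rows sharing a name (54), Xist and 4 Y-linked genes were left out. Depth came from low values that are whole multiples of 1 read: 59.5% were whole within 0.01 read after scaling by relative depth, against 3.39% without. The fit was tested on simulated data. Members, lists and tests were chosen with earlier results of these data known. All members are named, with up to 2 genes per pathway list and comparison by lowest p and the 3 genes most correlated with a member. Coordinates are from GENCODE vM21. Alternatives were other pseudocounts, no filter, 2 scalings, a replicate block, a sex term, fits of 2 groups and leaving libraries out.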

Additional observations from a re-analysis of the deposited data

Results flagged for a closer look

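Among the 40 sets of 4 libraries examined (10 genes in 4 groups), 5 had a library whose gap to its nearest fellow took up more of the range than the critical value of Dixon's test (0.829 for 4 values), where chance flags about 1 in 20. Of the 40 sets, 2 were at 0 throughout and could not show such a gap. Nkd1 was 6.97 RPKM in WT-ST 4, against 3.08 to 3.72 in its fellows. Nkd2 was 0.591 RPKM in WT-NS 1, about 9 reads against 3 in each of the others. Rnf43 was 0.0240 RPKM in WT-ST 2, about 1 read, with 0 in its fellows, a set in which any single read would be flagged. Dkk2 was 2.32 RPKM in WT-NS 4, where the others held 0.0363 to 0.156 RPKM. Dkk2 was also 4.89 RPKM in Cko-ST 4, the library with the highest mural sum, against 0 to 0.182 RPKM in the others.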

How the results depend on the processing

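The falls of Axin2, Notum and Tnfrsf19 with stroke passed in both genotypes under every alternative run. The counts of genes passing for stroke were 993 to 1113 in WT and 1044 to 1513 in Cko with a library left out, in place of 1308 and 1491, and counts that moved by over 1.5 times are given next. With the sex label as a term, a label that the RNA goes against in 2 libraries, 993 genes passed for stroke in Cko in place of 1491, and 18 for genotype in the non-stroke hemisphere in place of 31. The latter count was 19 with no filter, 2 in a fit of the 2 groups, 60 with the replicate block and 1 to 41 when a library was left out, lowest without WT-NS 4. Rnf146 was the 1 member passing there, and 0 passed with the sex term or the fit of 2 groups, and 0 to 1 when a library was left out. For genotype in the stroke hemisphere 0 to 8 genes passed with a library left out (8 without WT-ST 3, 3 without Cko-ST 3), none of them a member. Same-numbered libraries of the 2 hemispheres correlated with r of 0.0116 to 0.126 in WT and 0.10 to 0.21 in Cko, and same-numbered libraries of the beta-catenin experiment with -0.00749 and 0.00628, and since not every pair was over 0.1 and the labels state no pairing, the numbers were not taken to pair samples. As a hint that they may, a library's best match had its own number in 3 of 4 WT pairs and 4 of 4 Cko pairs, and the Cko libraries numbered 4 were the ones with male RNA in both hemispheres. The replicate block changed the call of no member. It gave each number 1 effect shared by both genotypes, so it was not a block per mouse and does not test the pairing. If the numbers do pair the hemispheres of a mouse, the main fit left this out and treated paired libraries as independent. The oligodendrocyte sum was higher in numbers 1 and 4 than in 2 and 3 within every stroke-experiment group (540, 46.1, 56.5 and 380 RPKM in Cko-NS 1 to 4). What libraries of the same number share was not tested.

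Scaling by the median of ratios moved the median of all genes from -0.13 to -0.01 for stroke in Cko (867 rose and 604 fell, against 634 and 857; 744 and 663 with quantile normalization) and from 0.11 to 0.00 for genotype in the non-stroke hemisphere (14 and 15, against 22 and 9). Signs changed for values near 0 that never passed. Apcdd1 for stroke in WT went to -0.044 with 0.1 RPKM added, -0.014 with median-of-ratios scaling and -0.042 after quantile scaling, and -0.25 to 0.23 with a library left out; for genotype in the non-stroke hemisphere it was 0.0041 with 5 RPKM added and -0.22 to 0.14. Nkd1 was -0.23 to 0.13 for stroke in WT; for stroke in Cko it was 0.011 and 0.10 with the 2 scalings and -0.19 to 0.0071; for the interaction it was 0.056 and 0.15 with the scalings, 0.023 with the sex term and -0.24 to 0.13. The Axin2 interaction was 0.11 with 5 RPKM added, 0.10 with quantile normalization and -0.27 to 0.036 with a library left out. The Znrf3 interaction was -0.26 without Cko-NS 4 and Cko-ST 3 and -0.14 to 0.40 with single libraries out, and Notum in the beta-catenin comparison was -0.31 to 1.06. The cause of these changes was not tested. Rnf43, Nkd2 and, after stroke, Axin2 rest on few reads. The stroke groups were not the shallower ones. Depth was 4.72 to 14.5 M reads in WT-NS, 6.54 to 19.2 in WT-ST, 7.21 to 11.6 in Cko-NS and 11.5 to 19.6 in Cko-ST. Notum was also low after stroke (0.215 to 0.502 RPKM in Cko-ST), and its reads could not be recovered.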
